A study of Mus musculus with 16 samples.

Results

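The Rab GTPases were examined in mouse oocytes and eggs as the set of entries whose gene symbol is Rab followed by a number and, where present, a letter and a further digit. The rule uses names only and no measured value. It matched 60 of the 28618 entries of the expression table, for 56 gene names. Rab3a and Rab44 were each listed as 2 entries and Rab11b as 3 entries, and the other names had 1 entry. All 56 names have a protein-coding gene in GENCODE M21 (GRCm38, the same build as mm10), on 18 chromosomes in all.

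RNA was sequenced from wild-type (WT) females and from Psma7 cKO females, whose genotype is Zp3-Cre; Psma7 flox/flox, at the germinal vesicle (GV) stage and at metaphase II (MII, here called eggs). Each of the 4 groups held 4 libraries, labelled as biological replicates, and each library was a pool of 5 cells according to the labels, while the study's methods give another pool size, so the spread between libraries is a spread between pools. The Zp3 promoter drives Cre in growing oocytes, so Psma7 is deleted in the oocyte and kept in the follicle cells around it. Cre was carried by the Psma7 cKO groups and not by the WT groups as labelled, and whether WT females carried floxed alleles is not given in the sources used here. All females were 3 to 4 weeks old and received 5 IU PMSG, a gonadotropin that stimulates follicle growth. GV oocytes were taken 44 h later, and eggs were taken from oviducts 14 to 16 h after hCG, which triggers ovulation, and freed of cumulus cells with 0.3% hyaluronidase. Psma7 encodes an α-subunit of the 20S proteasome, the core particle that degrades proteins.

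Rab proteins are small GTPases that mark membranes. In the GTP-bound form each one recruits effectors such as motors and tethers, exchange factors load the GTP, GTPase-activating proteins end the active state, and a prenyl anchor holds the protein in the membrane until a GDP dissociation inhibitor extracts it. In oocytes, Rab11a marks recycling vesicles that organise the cytoplasmic actin network during maturation, and Rab3 and Rab27 proteins act in regulated secretion, the kind of exocytosis by which eggs release cortical granules. The study describes fully grown oocytes as transcriptionally quiescent, so transcript amounts between GV and MII are set largely by stability. Many stored mRNAs also gain or lose poly(A) tail over the same hours.

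Values are FPKM, the fragments of a transcript divided by its length and by all fragments mapped in that library. FPKM is a share of a library, so less RNA per cell and fewer cells cannot be told apart. A rise in FPKM can be a larger share of a smaller pool of RNA and does not show more molecules per cell. The reverse transcription was primed with oligo-dT, so the amount of an mRNA and the length of its poly(A) tail cannot be told apart either. The libraries were of like depth, estimated at 10.6 to 15.7 M fragments each. At the GV stage Psma7 itself read 142 to 201 FPKM in the WT libraries against 11.1 to 18 FPKM after deletion. At MII it read 97.7 to 172 FPKM against 13.6 to 59.9 FPKM, so the genotypes did not overlap at either stage. The 10 oocyte markers were all above 1 FPKM on average in every group. Of 14 cumulus and granulosa markers, 3 reached 1 FPKM on average in GV oocytes and 2 in eggs, with a summed level of 12.9 to 17.9 FPKM over all libraries, led by Cyp19a1 at 6.2 to 15.2 FPKM (8.1 on average in WT GV oocytes and 13.5 in WT eggs), Nr5a2 at 1.94 to 3.94 FPKM and Cyp11a1 at 0.273 to 2.63 FPKM. Of the other markers, Fshr reached 0.862 FPKM and Inha 0.815 FPKM in single libraries, while Foxl2, Amh, Tnfaip6 and Ptx3 stayed under 0.08 FPKM in every library. The part of these markers in the Rab values was not tested. The Psma7 cKO egg libraries differed among themselves. A set of 396 other transcripts was picked because each lost over 10-fold of its mean level during maturation in these WT libraries. The sum left in eggs was taken as a percentage of that in GV oocytes of the same genotype. It was 5.93, 6.80, 6.22 and 6.06% in the WT libraries, and 12.7, 8.80, 34.5 and 19.1% in the Psma7 cKO libraries 1 to 4. Low WT values follow from the choice of the set, so the gap between genotypes is not read as a result.

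Of the 60 entries, 36 averaged 1 FPKM or more across all 16 libraries and 30 were at or above 1 FPKM in every library. The other end of the range held 22 entries under 1 FPKM in every library, of which 15 were under 0.2 FPKM in every library. Each Rab was assigned to a compartment class from general knowledge. The early endosome held 9 entries with a mean of at least 1 FPKM out of 10, and the endoplasmic reticulum (ER) and Golgi 7 of 11. Late endosomes, lysosomes and related organelles held 6 of 11, recycling and polarised transport 8 of 13, regulated secretion 4 of 10, and the remaining Rabs 2 of 5. The Rabs that were close to absent included Rab27b, at most 0.0197 FPKM in any library, Rab15, at most 0.0103 FPKM, Rab17, at most 0.133 FPKM, and Rab3c, at most 0.113 FPKM. Summed over all 60 entries, Rab transcripts of GV oocytes amounted to 1729 ± 40.7 FPKM in the WT group and 1736 ± 39.6 FPKM in the Psma7 cKO group (mean ± SD, n = 4 libraries each, as for all means here), or 0.427 and 0.430% of the total. In WT eggs the sum was 1260 ± 57.1 FPKM, or 0.318% of the total, and it was 1397 ± 39.3 FPKM, or 0.342%, in the eggs of Psma7 cKO females.

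**Figure D1:**
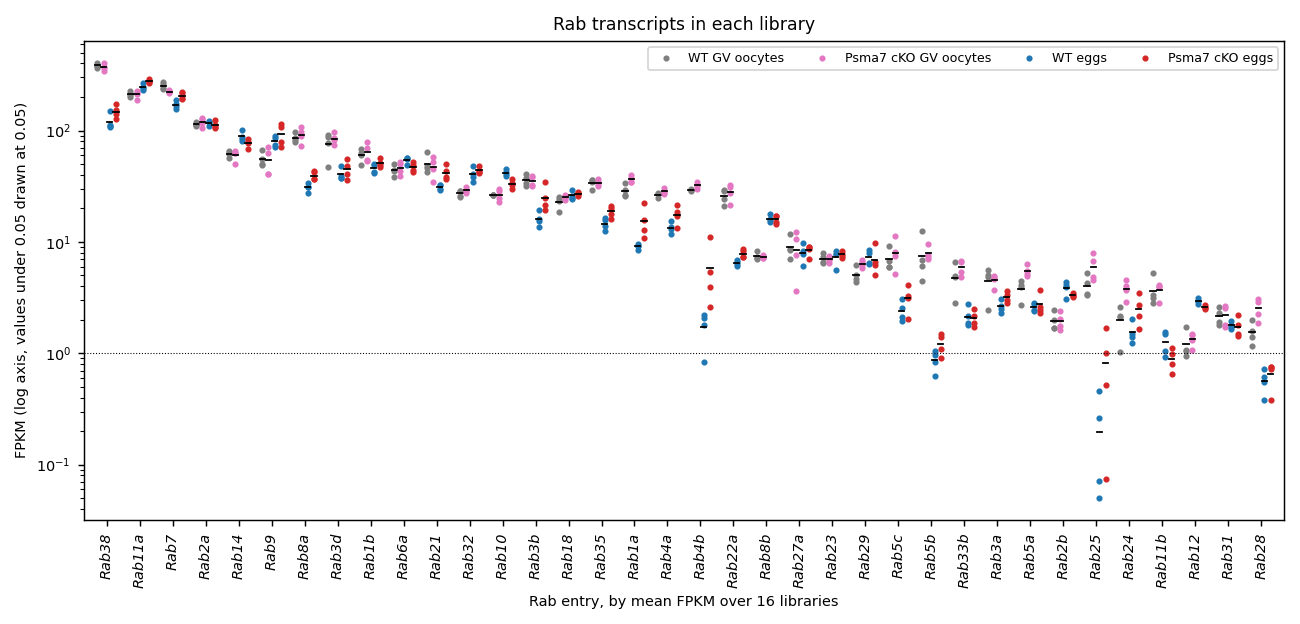
FPKM (log axis) of the 36 Rab entries with a mean of at least 1 FPKM, one point per library and a bar at each group mean, ordered by the mean over 16 libraries. The dotted line marks 1 FPKM, and the levels run from 255 FPKM for Rab38 to 1.32 FPKM for Rab28.

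A few members made up most of the Rab signal. Rab38, known for its part in the biogenesis of lysosome-related organelles such as melanosomes, led in GV oocytes with 408, 386, 363 and 378 FPKM in the WT libraries. It was followed by Rab7, the Rab of late endosomes and lysosomes, at 253 ± 15.8 FPKM, by Rab11a at 211 ± 11.3 FPKM, and by Rab2a, which acts between ER and Golgi, at 114 ± 4.13 FPKM. These 4 levels were separated without overlap in WT GV oocytes, whereas Rab8a (86.0 ± 7.46 FPKM), Rab3d (75.7 ± 19.5), Rab14 (61.9 ± 3.45) and Rab1b (60.1 ± 8.23) overlapped with their neighbours in that order. In WT eggs the order was different. Rab11a led with 246, 242, 269 and 233 FPKM, Rab7 was next at 171 ± 12.1 FPKM, and Rab38 at 120 ± 20.9 FPKM could not be ranked apart from Rab2a at 117 ± 5.20 FPKM.

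From GV to MII in WT, most expressed Rabs changed. Among 36 entries tested, 10 rose and 20 fell (limma, adjusted p under 0.05), with fitted changes from +1.31 for Rab12 to -4.11 for Rab4b on the log2 scale, for which values under 1 FPKM were set to 1. By group means without that floor, Rab25 fell 20.4-fold and Rab4b 16.9-fold. The same comparison called 26.1% of all 10475 entries higher and 52.4% lower, so the Rab counts, 27.8% and 55.6%, stood close to that background. The median log2 fold change was -0.54 over the Rab entries and -0.44 over all entries. Rescaling the libraries by their median ratio moved the all-entry median by +0.23, and the Rab calls were then 12 higher and 17 lower. The calls over all entries were then 3457 higher and 4792 lower, against 2738 and 5486 without it. The ranges of the 4 GV and 4 MII libraries did not overlap for 9 Rab entries that were higher in eggs and 16 that were lower (25% and 44.4%). Over all 10615 entries with a mean of at least 1 FPKM, 23.6% and 49% did not overlap in these directions.

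**Figure D2:**
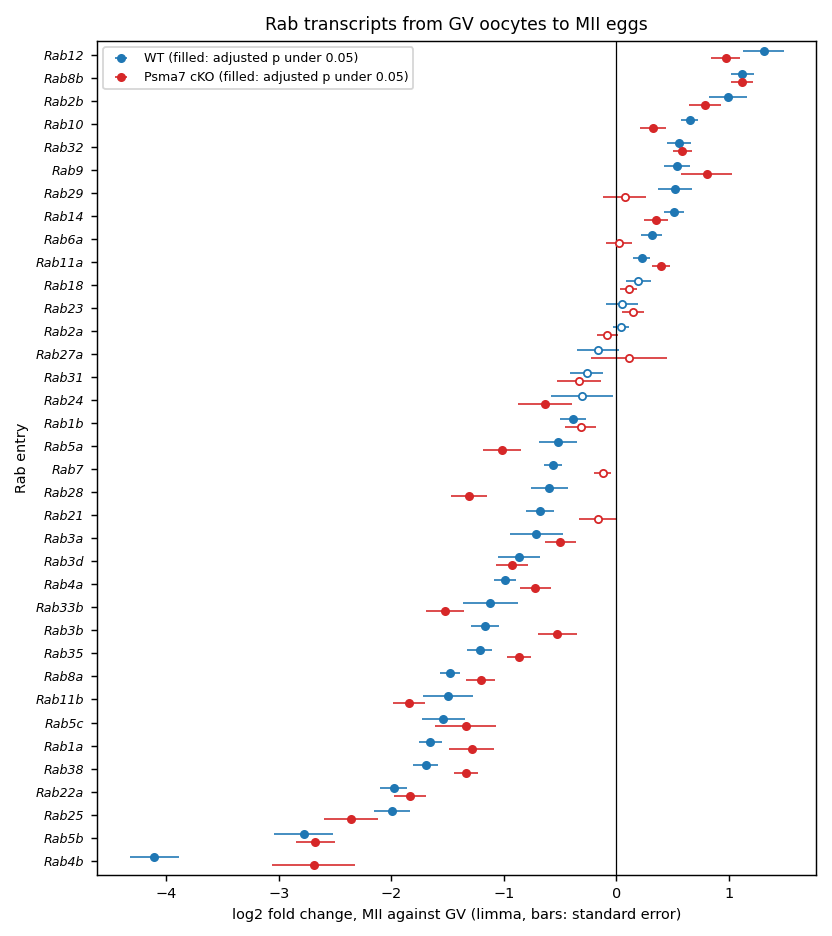
Log2 fold change from GV oocytes to MII eggs with its standard error (limma), for the 36 Rab entries tested in WT, in blue, and the same entries in Psma7 cKO, in red. Filled points have an adjusted p under 0.05, and the entries run from Rab12 (+1.31 in WT) to Rab4b (-4.11 in WT).

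The class counts that follow are to be read beside the 26.1% of all entries that rose and the 52.4% that fell. Each class is small, and none was tested as a set. Among the Rabs of the early endosome, none rose. Of 9 tested, 7 fell in WT, and their summed level went from 154 ± 10.7 FPKM in GV oocytes to 61.9 ± 1.71 FPKM in eggs. Rab4b, which acts in rapid recycling from early endosomes, was at 29.0, 30.1, 29.2 and 28.5 FPKM in WT GV oocytes and at 2.07, 2.22, 1.79 and 0.843 FPKM in WT eggs. This was a 16.9-fold lower mean (log2 fold change -4.11 ± 0.22 SE, adjusted p = 3.03e-08). Its paralogue Rab4a fell less, from 26.6 ± 1.03 to 13.5 ± 1.54 FPKM. Rab5 proteins control fusion of early endosomes. Rab5b was at 12.6, 6.11, 4.43 and 6.85 FPKM in WT GV oocytes and at 0.958, 0.628, 1.05 and 0.831 FPKM in WT eggs (log2 fold change -2.78 ± 0.26, adjusted p = 2.62e-06). Rab5c fell from 7.00 ± 1.55 to 2.41 ± 0.492 FPKM, and Rab5a, the least abundant of the Rab5 genes in GV oocytes, from 3.79 ± 0.770 to 2.61 ± 0.222 FPKM with overlapping ranges. Rab22a, an early endosomal Rab related to Rab21 and Rab31, was at 20.8, 24.1, 29.2 and 28.7 FPKM in GV oocytes and at 6.09, 6.62, 6.34 and 6.81 FPKM in eggs. Every egg library was below every GV library for Rab4b, Rab5b, Rab5c and Rab22a. The 2 members of the class that were not called were Rab31 and Rab24, a Rab also tied to autophagosomes.

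Late endosomal and lysosomal Rabs were mixed, with 4 rises and 2 falls among 6 tested. Rab38 fell from 384 ± 18.7 FPKM to 107, 110, 151 and 111 FPKM in the WT egg libraries (log2 fold change -1.70 ± 0.11, adjusted p = 1.39e-07), and Rab7 fell from 241, 270, 238 and 262 FPKM to 167, 158, 174 and 186 FPKM (-0.56 ± 0.08, adjusted p = 6.51e-05). The changes of both were without overlap between stages. Rab32, the closest relative of Rab38, changed in the opposite direction. It was at 28.9, 28.9, 26.0 and 25.6 FPKM in GV oocytes and at 34.7, 40.5, 38.5 and 47.7 FPKM in eggs, so its share of the Rab32 and Rab38 sum was 6.64 ± 0.255% in GV oocytes and 25.5 ± 4.07% in eggs. Rab9, which returns receptors from late endosomes to the Golgi, rose from 55.2 ± 7.90 to 80.0 ± 8.74 FPKM. Rab12, linked to the degradation of transferrin receptor, had the largest rise of all Rabs but from a low level, with 1.05, 0.950, 1.74 and 1.08 FPKM in GV oocytes and 3.12, 2.92, 2.77 and 2.93 FPKM in eggs. Rab29 also rose (log2 fold change 0.52).

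Recycling and polarised transport held 4 rises and 4 falls among 8 tested, and the split ran through gene pairs. Rab11a rose from 210, 198, 226 and 211 FPKM to 246, 242, 269 and 233 FPKM (log2 fold change 0.23 ± 0.08, adjusted p = 0.0173), a small change that left no overlap between stages. Without WT egg library 3 the change was 0.18 (adjusted p = 0.0574), and with median-ratio rescaling it was 0.45. The other members of the Rab11 group fell. Rab11b was read almost entirely through 1 of its 3 entries, at 3.62 ± 1.08 FPKM in GV oocytes and 1.25 ± 0.309 FPKM in eggs, and how fragments were divided among those entries is uncertain. Rab25, a Rab11 relative best known from epithelia, was at 3.38, 3.37, 4.24 and 5.20 FPKM in GV oocytes and at 0.458, 0, 0.264 and 0.0715 FPKM in eggs, below the floor of 1 FPKM used for the fit, so its fitted change of -1.99 understates the difference. Rab11a thus made up 96.5 ± 0.474% of the Rab11 group in GV oocytes and 99.4 ± 0.0744% in eggs.

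The Rab8 pair, which directs vesicles to the plasma membrane, moved in opposite directions. Rab8a fell from 96.5, 85.7, 79.1 and 83.0 FPKM to 31.2, 31.2, 33.5 and 27.6 FPKM, and Rab8b rose from 7.26, 7.2, 8.25 and 7.02 FPKM to 15.9, 15.0, 15.9 and 17.8 FPKM. The fitted changes were -1.48 ± 0.09 and 1.12 ± 0.10, and neither gene had overlapping stages. Rab8b made up 8.00 ± 1.03% of their sum in GV oocytes and 34.4 ± 3.33% in eggs. Rab10, a relative of Rab8 that acts in exocytosis of transporters such as GLUT4, was at 26.6, 26.4, 26.3 and 26.6 FPKM in GV oocytes and at 45.1, 38.7, 40.8 and 42.0 FPKM in eggs (0.65 ± 0.08, adjusted p = 1.49e-05). Rab14, which moves cargo between endosomes and the Golgi, rose from 61.9 ± 3.45 to 88.5 ± 8.44 FPKM.

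Among Rabs of the ER and Golgi, 2 rose, 3 fell and 2 were not called. Rab1a fell from 33.8, 25.9, 29.2 and 26.5 FPKM to 9.19, 9.24, 9.65 and 8.48 FPKM (log2 fold change -1.65 ± 0.11, adjusted p = 1.18e-07), whereas Rab1b, which shares its role in ER to Golgi transport, fell only from 60.1 ± 8.23 to 45.9 ± 4.33 FPKM with overlapping ranges. The Rab1b share of the pair was 67.4 ± 4.41% in GV oocytes and 83.3 ± 1.58% in eggs. Rab2b rose from 1.95 ± 0.356 to 3.87 ± 0.572 FPKM, and its far more abundant paralogue Rab2a was not called, at 114 ± 4.13 and 117 ± 5.20 FPKM. With median-ratio rescaling Rab2a was called as a rise (log2 fold change 0.27, limma adjusted p = 0.00969). So was Rab18 (0.42, adjusted p = 0.00328), which was not called in the main fit. Rab6a, the main Golgi Rab, rose from 43.8 ± 4.56 to 54.4 ± 3.79 FPKM with ranges that overlapped.

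Of the Rabs of regulated secretion, 4 were tested, and 3 fell. Rab3d, which marks secretory granules in several exocrine tissues, was at 90.4, 78.0, 47.5 and 86.9 FPKM in WT GV oocytes and at 39.4, 37.2, 48.1 and 37.2 FPKM in eggs (log2 fold change -0.87 ± 0.19, adjusted p = 0.00138). GV library 3 lay below the highest egg library. Rab3b fell from 36.0 ± 4.15 to 16.1 ± 2.35 FPKM, and Rab3a, which takes part in cortical granule exocytosis in mouse eggs, from 4.49 ± 1.39 to 2.64 ± 0.322 FPKM with overlap. The call of Rab3a was lost without WT GV library 1, 2 or 4 (adjusted p = 0.0578, 0.0507 and 0.055) and, as were those of Rab5a and Rab1b, with median-ratio rescaling (0.0632, 0.128 and 0.193). Rab3d held 64.2 ± 8.24% of the Rab3 sum in GV oocytes and 68.2 ± 3.77% in eggs. Rab27a, which docks secretory granules, was the member not called, at 8.66, 6.96, 8.40 and 11.9 FPKM in GV oocytes and 7.74, 8.33, 9.80 and 6.04 FPKM in eggs, and its ranges overlapped.

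The 3′ ends of the Rab transcripts were searched for the cytoplasmic polyadenylation element, the U-rich site bound by CPEB1 in mRNAs whose poly(A) tails are lengthened during meiotic maturation. The motifs TTTTAT and TTTTAAT were sought on the sense strand of the last 120 bases of the annotated 3′ UTR of 1 principal transcript per gene, where they may overlap a polyadenylation signal. At least 1 of them was present in 5 of the 10 Rab entries that rose in WT and in 2 of the 20 that fell. Over all entries tested with an annotated 3′ UTR it was present in 33.7% of those that rose, 15.2% of those that fell and 22.2% of the total of 8795. A match describes the letters only, and no binding was measured. The sites of the rising Rab11a, Rab9, Rab6a, Rab8b and Rab2b and of the falling Rab22a and Rab5a are printed to show what was counted, 5′ to 3′ on the transcript strand with 30 bases each and the motif in capitals. Where a gene held 2 motifs, the one nearer the 3′ end is given.
Rab11a, chr9:64715340-64715369, minus strand: ttggacttttTTTTAATctattgatttgga
Rab9, chrX:166457320-166457349, minus strand: atgtgtatatTTTTATgtaattagcattgt
Rab6a, chr7:100641209-100641238, plus strand: gactcttttgTTTTATtttgacatggcatg
Rab8b, chr9:66843716-66843745, minus strand: taaaaatgaaTTTTATtccaggtgaacttt
Rab2b, chr14:52261796-52261825, minus strand: attttctaatTTTTATtgttaatgaccgtt
Rab22a, chr2:173707223-173707252, plus strand: aattgtatgcTTTTATagagtgtggcatgc
Rab5a, chr17:53507624-53507653, plus strand: cggtgtttagTTTTATattgaggtgctcag
All 7 sites lie in annotated 3′ UTRs, with positions on mm10. Rab11a, Rab9 and Rab6a held 2 motifs within the window and the other 4 held 1. The motif began 61 bases from the annotated 3′ end in Rab11a, 87 in Rab9, 50 in Rab6a, 72 in Rab8b and 57 in Rab2b, and 111 in Rab22a and 47 in Rab5a. The 5 other Rabs that rose, Rab12, Rab10, Rab32, Rab29 and Rab14, held neither motif in this window.

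In Psma7 cKO, 8 of 37 Rab entries tested rose from GV to MII and 19 fell, where 23% and 51% of all 10748 entries were called in the same directions. With median-ratio rescaling, 3314 of all entries were higher and 4574 lower, against 2472 and 5482 without it, and the Rab calls were 10 and 16. The ranges of GV oocytes and eggs did not overlap for 7 of 36 entries higher in eggs and 16 lower (19.4% and 44.4%), against 21.6% and 47% of all entries. The rises of Rab8b (log2 fold change 1.12 ± 0.10), Rab12 (0.97 ± 0.13), Rab9 (0.80 ± 0.23), Rab2b (0.79 ± 0.14), Rab32 (0.58 ± 0.08), Rab11a (0.40 ± 0.08), Rab14 (0.35 ± 0.11) and Rab10 (0.33 ± 0.11) were called, and Rab29 and Rab6a, called in WT, were at 0.07 ± 0.19 and 0.02 ± 0.12. On the fitted scale with its floor of 1 FPKM, the deepest falls were those of Rab4b (-2.69 ± 0.37), Rab5b (-2.67 ± 0.17), Rab25 (-2.36 ± 0.24), Rab11b (-1.84 ± 0.14) and Rab22a (-1.83 ± 0.14). By group means without the floor the order was Rab25 (7.34-fold), Rab5b (6.47-fold) and Rab4b (5.59-fold). Rab38 was at 400, 372, 366 and 345 FPKM in Psma7 cKO GV oocytes and at 152, 126, 171 and 140 FPKM in Psma7 cKO eggs, and Rab11a overtook it as in WT. Rab7, Rab21 and Rab1b, which fell in WT, were not called in Psma7 cKO (adjusted p = 0.176, 0.393 and 0.0594). Whether the changes of Rab21 and Rab1b differed between genotypes was tested in the interaction, where neither was called. The Psma7 cKO rise of Rab10 was lost without GV library 1 or 4 or egg library 2 or 4, with adjusted p from 0.0604 to 0.0723.

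**Figure D3:**
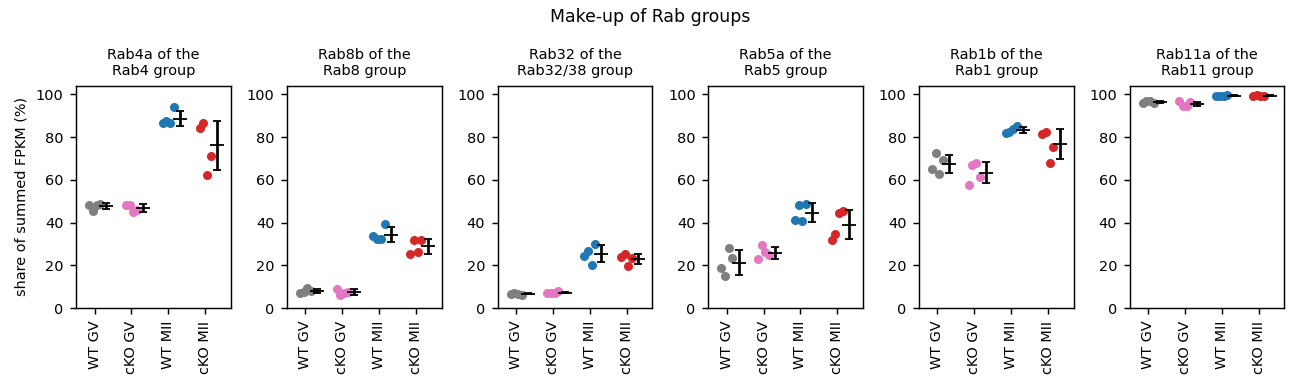
Share of 1 member in the summed FPKM of its Rab group (percent), one point per library with the mean and SD beside it, in WT GV, Psma7 cKO GV, WT MII and Psma7 cKO MII libraries. In WT the Rab4a share was 47.6% at GV and 88.7% at MII, and the Psma7 cKO eggs averaged 76.2%, where the single libraries spread from 62.4 to 86.7%.

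Psma7 cKO GV oocytes differed little from WT in their Rab transcripts. None of the 38 Rab entries tested was called in either direction (limma), against 0.0994% of all 11062 entries higher and 0.0181% lower. Without adjustment (limma p under 0.05), 7 of 38 Rab entries were higher in Psma7 cKO and 1 was lower. Of all 11062 entries, 843 and 339 were. The Rab share was larger for a rise and similar for a fall, which was not tested. The Rab median was +0.08 and the all-entry median +0.04. Among the 36 entries with a mean of at least 1 FPKM, 3 were above and 1 was below the WT range without overlap (8.33% and 2.78%), against 4.16% and 2.51% of all 10615 such entries. Rab5a was higher, at 5.52, 5.11, 6.27 and 4.98 FPKM against 4.47, 2.69, 4.08 and 3.91 FPKM in WT (log2 fold change 0.55 ± 0.17, adjusted p = 0.272). Rab24, a Rab tied to autophagosomes, showed the largest difference, with 4.02, 2.89, 4.57 and 3.73 FPKM against 2.63, 1.02, 2.15 and 2.12 FPKM (1.00 ± 0.27, adjusted p = 0.203). Rab1a was at 36.4 ± 2.45 FPKM against 28.8 ± 3.61 FPKM (adjusted p = 0.271). The member below the WT range was Rab7, at 230, 221, 225 and 215 FPKM against 241, 270, 238 and 262 FPKM (-0.18 ± 0.08, adjusted p = 0.447). For each of these 4 the two-sided exact permutation test over 4 and 4 libraries gave p = 0.0286, the smallest it can give. Groups without overlap always give this value, so it repeats the separation and adds no support. The abundant members were close between genotypes, with Rab11a at 211 ± 17.5 FPKM against 211 ± 11.3 FPKM and Rab38 at 371 ± 23.1 FPKM against 384 ± 18.7 FPKM. Rab24 and Rab1a are named here outside the rule for named genes, after their values were seen.

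**Figure D4:**
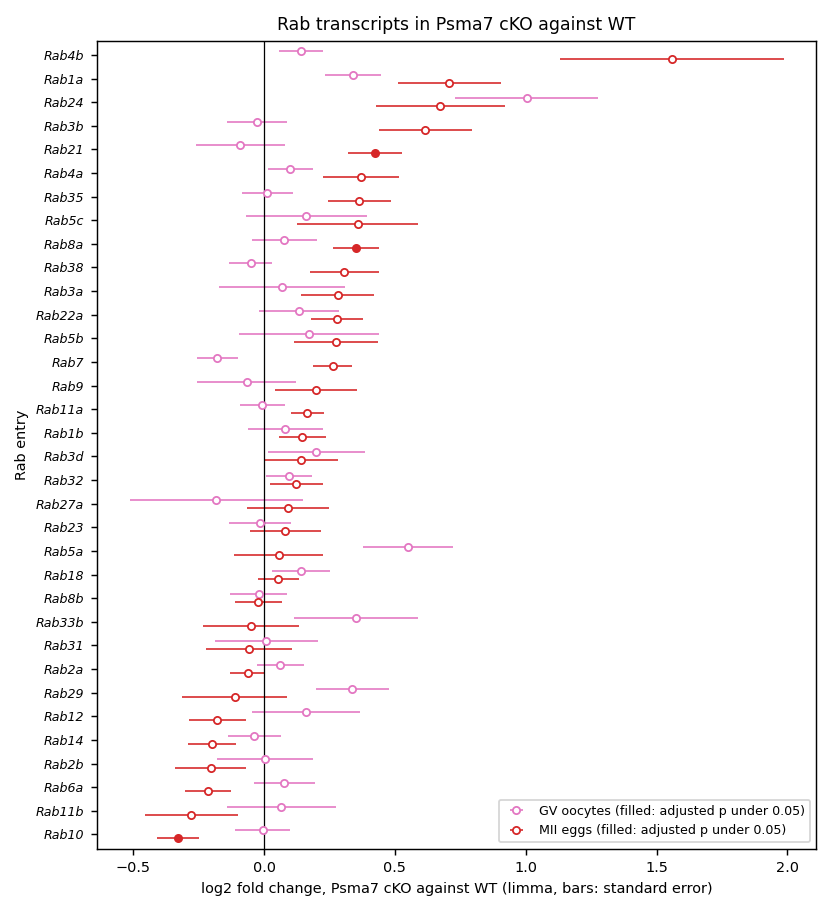
Log2 fold change of Psma7 cKO against WT with its standard error (limma) in GV oocytes, in pink, and in eggs, in red, for the 34 Rab entries tested in eggs. Filled points have an adjusted p under 0.05, which in eggs are Rab21 and Rab8a to the right of 0 and Rab10 to the left, and there are none in GV oocytes.

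In eggs, 3 of 34 Rab entries were called between genotypes. Rab21 and Rab8a were higher in Psma7 cKO eggs and Rab10 was lower. Of all 9492 entries tested, 6.53% were called higher and 1.49% lower, so 2 and 1 of 34 (5.88% and 2.94%) were no more than the background share for a rise and rested on a single entry for a fall. The Rab median was +0.14 and the all-entry median +0.07. The genotypes did not overlap for 7 of 36 entries that were higher in Psma7 cKO eggs and for 2 that were lower (19.4% and 5.56%), against 13.7% and 6.3% of all 10615 entries with the same mean level. Without adjustment (limma p under 0.05), 12 of 34 Rab entries were higher in Psma7 cKO eggs and 2 were lower. Of all 9492 entries, 1952 and 835 were. The Rab share was larger for a rise and smaller for a fall, which was not tested.

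Rab21 (chr10:115287084-115315594, minus strand), an early endosomal Rab that binds integrins, was at 32.1, 29.9, 32.7 and 29.5 FPKM in WT eggs and at 38.3, 36.6, 49.7 and 43.1 FPKM in Psma7 cKO eggs. The mean was 1.35-fold higher (log2 fold change 0.42 ± 0.10, adjusted p = 0.0407). Rab8a (chr8:72161200-72183904, plus strand) was at 31.2, 31.2, 33.5 and 27.6 FPKM in WT eggs and at 42.9, 36.4, 42.0 and 36.4 FPKM in Psma7 cKO eggs (1.28-fold, 0.35 ± 0.09, adjusted p = 0.0463). Rab10 (chr12:3247428-3309969, minus strand) was at 45.1, 38.7, 40.8 and 42.0 FPKM in WT eggs and at 30.1, 34.1, 32.2 and 36.4 FPKM in Psma7 cKO eggs (1.25-fold lower, -0.33 ± 0.08, adjusted p = 0.0440). Each of the 3 separated the genotypes without overlap, for which the two-sided exact permutation test can only give p = 0.0286. Rab21 and Rab8a were thus nearer in Psma7 cKO eggs to their GV level than they were in WT eggs, and so was Rab10, which rises during maturation. The study reports that some oocytes ovulated by Psma7 cKO females stayed at the GV stage or stopped before MII. Whether such cells entered the pools labelled MII is not given, and their part in these values was not tested.

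These 3 calls were not stable. The number of Rab entries called in eggs ran from 0 to 5 when 1 library was left out. It was 0 without any single WT egg library and without Psma7 cKO library 1 or 3, 1 without library 4, which was Rab10, and 5 without library 2, where Rab4b (log2 fold change 1.87, adjusted p = 0.0233) and Rab1a (0.86, adjusted p = 0.0218) joined the 3. The calls over all entries moved likewise, from 620 higher and 141 lower in the main fit. Without WT egg libraries 1 to 4 they were 12 and 0, 109 and 5, 3 and 0, and 31 and 8. Without Psma7 cKO libraries 1 to 4 they were 166 and 31, 1024 and 136, 287 and 30, and 360 and 58. With median-ratio rescaling Rab10 alone was called (-0.38), so the split of 2 higher and 1 lower became 0 and 1. The split over all entries was then 510 and 207.

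Rab4b, Rab1a, Rab24 and Rab3b had the largest differences in eggs by log2 fold change, and all 4 missed the threshold. Rab4b (chr7:27168424-27178896, minus strand) was at 2.07, 2.22, 1.79 and 0.843 FPKM in WT eggs and at 3.96, 2.61, 11.1 and 5.40 FPKM in Psma7 cKO eggs, a 3.33-fold difference of means (log2 fold change 1.56 ± 0.43, adjusted p = 0.0558). Rab1a was at 9.19, 9.24, 9.65 and 8.48 FPKM in WT eggs and at 12.9, 10.8, 22.4 and 15.8 FPKM in Psma7 cKO eggs (0.71 ± 0.20, adjusted p = 0.0576). Rab3b was at 15.3, 19.3, 15.9 and 13.7 FPKM in WT eggs and at 19.5, 21.5, 34.3 and 24.9 FPKM in Psma7 cKO eggs (0.62 ± 0.18, adjusted p = 0.0609). For Rab4b, Rab1a and Rab3b the highest value was that of Psma7 cKO library 3, the library with 34.5% of the decaying transcripts left, and for Rab4b and Rab1a, as for the called Rab21, the 4 libraries stood in the same order as in that measure. The part of this difference between libraries in the Rab values was not tested. Without Psma7 cKO library 3, the log2 fold changes were 1.17 for Rab4b, 0.51 for Rab1a, 0.45 for Rab3b, 0.34 for Rab21, 0.32 for Rab8a and -0.31 for Rab10, with adjusted p from 0.0626 to 0.0955. Rab24, which was not called during WT maturation, was at 2.51 ± 0.793 FPKM against 1.54 ± 0.333 FPKM, with overlapping genotypes (0.67, adjusted p = 0.112). Rab5b and Rab22a, whose falls from GV to MII were deeper than those of Rab1a and Rab3b, had fitted differences of 0.27 and 0.28 in eggs. The WT egg values of Rab5b lay around the floor of 1 FPKM, and its mean without the floor was 1.40-fold higher in Psma7 cKO eggs. Rab22a was higher in Psma7 cKO eggs without overlap. Rab3b and Rab24 are named outside the rule for named genes, after their values were seen.

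**Figure D5:**
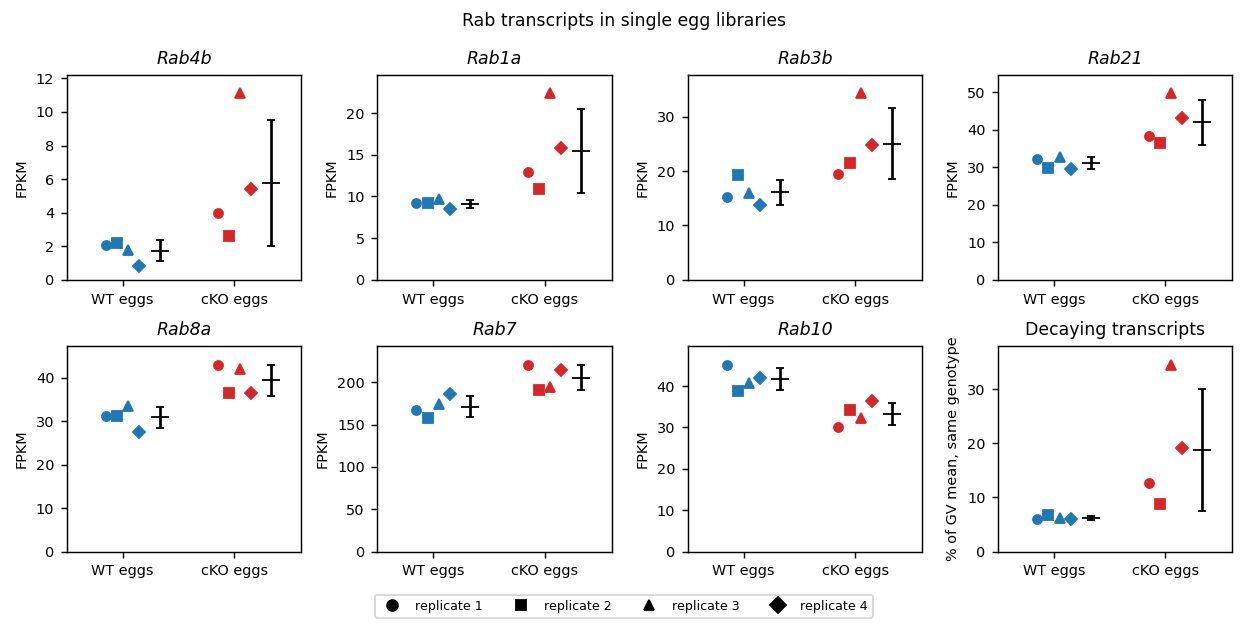
FPKM of 7 Rab transcripts in each egg library (panels with their own axes from 0), with the mean and SD beside the points and a marker shape for each replicate number, and in the last panel the percentage of 396 decaying transcripts left in the same library. Psma7 cKO replicate 3 is the highest library for Rab4b, Rab1a, Rab3b and Rab21 and in the last panel (34.5%), and is not the highest for Rab8a, Rab7 or Rab10.

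The remaining Rabs of interest for secretion and recycling were not called in eggs. Rab11a was at 277, 290, 273 and 269 FPKM in Psma7 cKO eggs against 246, 242, 269 and 233 FPKM in WT eggs, with the highest WT library just above the lowest Psma7 cKO library (log2 fold change 0.17 ± 0.06, adjusted p = 0.121). Rab3d was at 45.0 ± 8.60 FPKM against 40.5 ± 5.21 FPKM, Rab3a at 3.21 ± 0.348 against 2.64 ± 0.322 and Rab27a at 8.42 ± 0.949 against 7.98 ± 1.56, all with overlapping genotypes. Rab14 (0.871 of the WT mean) and Rab6a (0.864 of the WT mean) were lower in mean level, as Rab10 was, but overlapped with WT. Rab5a, which stood above WT in Psma7 cKO GV oocytes, was at 2.75 ± 0.631 FPKM against 2.61 ± 0.222 FPKM in eggs.

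The change from GV to MII differed between genotypes for 1 of 36 Rab entries (genotype by stage interaction over 16 libraries, limma), against 1.07% of all 10615 entries with a more positive change in Psma7 cKO and 0.188% with a more negative one. This entry was Rab7 (chr6:87999106-88045270, minus strand). Its mean fell from 253 to 171 FPKM in WT and was 223 FPKM in Psma7 cKO GV oocytes and 205 FPKM in Psma7 cKO eggs, whose libraries read 221, 191, 194 and 215 FPKM. The interaction was 0.44 ± 0.10 on the log2 scale (adjusted p = 0.0461). It joined a level below WT in GV oocytes with a level above WT in eggs (0.26 ± 0.08, adjusted p = 0.0608), neither of which was called alone. The call held in 2 of the 16 fits that left out 1 library, those without Psma7 cKO egg library 2 or 3, where the adjusted p was 0.0185 and 0.0488, and over all 16 the adjusted p ran from 0.0185 to 0.101. With median-ratio rescaling it was 0.0754. Rab4b had the largest interaction among the Rabs (1.42 ± 0.46, adjusted p = 0.122), and without Psma7 cKO egg library 2 it was called (1.73, adjusted p = 0.0189).

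The proteins that load, anchor and use Rabs were counted from lists of known regulators and effectors. In GV oocytes none of their genes was called between genotypes, and in eggs 3 were, all higher in Psma7 cKO. Tbc1d7, a TBC-domain protein that also belongs to the TSC complex, was at 4.75 ± 1.94 FPKM in Psma7 cKO eggs against 1.76 ± 0.347 FPKM in WT eggs (log2 fold change 1.36 ± 0.30, adjusted p = 0.0340). Rph3al, an effector of Rab3 and Rab27 in secretory cells, was at 16.9 ± 1.97 FPKM against 11.1 ± 1.46 FPKM (0.61 ± 0.13, adjusted p = 0.0319). Exoc6, a subunit of the exocyst that tethers vesicles to the plasma membrane, was at 17.9 ± 2.22 FPKM against 13.0 ± 1.03 FPKM (0.46 ± 0.11, adjusted p = 0.0396). Tbc1d7 and Rph3al had fallen from GV to MII in WT, from 11.3 ± 0.646 and from 50.9 ± 4.95 FPKM. These calls are 1 of 17 GTPase-activating proteins and 2 of 24 other effectors tested in eggs, beside 6.53% of all entries called higher, and nothing particular to either list is read from them. They come from the same egg fit as the Rab calls. It called 620 of all entries higher, but 12, 109, 3 and 31 without WT egg libraries 1 to 4. Whether these 3 genes stayed called with a library left out was not tested. None was called among 7 genes of prenylation and membrane cycling, 18 exchange factors, 3 Rab11 effectors and 15 entries for exocytosis and cortical granules.

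From GV to MII in WT, the machinery of Rab membrane anchoring gave 6 falls and 0 rises among 8 tested. Rabggta, a subunit of the transferase that prenylates Rabs, fell from 9.77 ± 1.28 to 0.921 ± 0.255 FPKM, and Gdi2, a GDP dissociation inhibitor, from 92.1 ± 4.29 to 38.3 ± 2.58 FPKM. Exchange factors gave 7 rises and 8 falls among 20, GTPase-activating proteins 6 and 11 among 21, Rab11 effectors 1 and 1 among 4, and other effectors 9 and 6 among 24. Among exchange factors the largest changes were the falls of Rab3il1, from 21 ± 4.00 to 0.618 ± 0.238 FPKM, and of Rab3ip, which activates Rab8, from 11.3 ± 3.43 to 1.51 ± 0.328 FPKM. Among GTPase-activating proteins they were the falls of Sgsm3 (log2 fold change -2.91 ± 0.18) and Sgsm1 (-2.72 ± 0.24). Among Rab11 effectors Rab11fip1 fell (-1.75 ± 0.14) and Myo5a, a myosin V heavy chain, rose (0.33 ± 0.11), and among other effectors the falls of the inositol phosphatase Inpp5b (-3.46 ± 0.19) and of Rph3al (-2.20 ± 0.12) were the largest. The list of exocytosis and cortical granule genes gave 4 rises and 10 falls among 15, led by the SNARE Vamp8, whose main entry fell from 30.5 ± 4.70 to 1.95 ± 0.291 FPKM, and by Stxbp2, which binds syntaxins, from 9.19 ± 2.24 to 1.07 ± 0.281 FPKM. Every list is to be read beside the 26.1% of all entries that rose and the 52.4% that fell.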

How the data were processed

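The authors deposited 1 table of FPKM values per gene entry and library, made from Smart-seq2 libraries with TopHat2 2.1.1, Cufflinks 2.2.1 and mm10 according to the submitters' processing notes. The gene annotation is not given in the sources used here. The lysis mix held ERCC spike-in RNA. The table has 0 ERCC entries, and values were not scaled to it. Columns were matched to samples by the column names in the labels.

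FPKM below 1 was set to 1, log2 was taken, and entries averaging 1 FPKM or more in the compared libraries were fitted with limma 3.58.1 (R 4.3.3), with an intensity trend. Each comparison used its own 8 libraries and the interaction all 16. Benjamini-Hochberg adjustment ran over all entries tested, and adjusted p under 0.05 was the threshold. The procedure was tested on simulated data whose changes were larger than the genotype differences called among Rabs. That test therefore does not show how reliable those calls are. For single members the exact permutation test was used, two-sided (scipy 1.17.1, 70 arrangements).

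The members, classes and gene lists were chosen with earlier results of these data known. Named in full were Rabs picked by role, the 10 most abundant, those called between genotypes or in the interaction, and the 6 largest rises and 6 largest falls from GV to MII in WT. Other list genes were named when called between genotypes, or as the 2 largest changes of their list. Positions and 3′ UTRs came from GENCODE M21, which matched 56 of 56 names. The spacing of very low FPKM values, times transcript length, gave an estimate of depth. Since the table holds no counts, no counting interval is given, and low entries rest on few fragments. Rabs with near-identical paralogues, and the entries of Rab11b, Rab3a and Rab44, may share fragments. The alternatives tried were log2 of FPKM plus 1, a floor of 0.1 FPKM, no filter, a filter of 5 FPKM, no trend, a replicate block, 1 fit of all 16 libraries, median-ratio rescaling, each library left out and, chosen after seeing the data, entries summed by name.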

Additional observations from a re-analysis of the deposited data

Results flagged for a closer look

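In 144 groups of 4 libraries (36 Rab entries in 4 groups), 5 held 1 library far from the other 3 by Dixon's criterion at 95%, where chance alone flags about 1 in 20, or 7.2. Rab38 was at 151 FPKM in WT egg replicate 3 and at 107 to 111 FPKM in the other WT eggs. Rab4a was at 25.0 FPKM in WT GV replicate 2 and at 26.9 to 27.2 FPKM in the others. The main Rab11b entry was at 2.82 FPKM in Psma7 cKO GV replicate 1 and at 3.90 to 4.10 FPKM in the others. Rab12 was at 1.74 FPKM in WT GV replicate 3 and at 0.950 to 1.08 FPKM in the others. Rab28 was at 0.383 FPKM in Psma7 cKO egg replicate 4 and at 0.717 to 0.753 FPKM in the others. Rab7 stood out because its change from GV to MII differed between the genotypes, with an interaction of 0.44 on the log2 scale.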

How the results depend on the processing

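No change that was called in either fit took the other sign. Among uncalled changes, 89 did so under an alternative, 79 of them with 1 library left out and 8 with median-ratio rescaling. Rescaling turned the GV to MII values of Rab7 (-0.12 to 0.13), Rab21 (-0.16 to 0.09) and Rab2a (-0.08 to 0.17) in Psma7 cKO, and of Rab27a (-0.16 to 0.06) in WT. From GV to MII in WT, 28 to 30 Rab entries were called when 1 library was left out, 29 with a replicate block and 29 with median-ratio rescaling, against 30 in the main fit. In Psma7 cKO 24 to 27 were called with 1 library left out, against 27, and 16 with a filter of 5 FPKM, which tested fewer entries. Between genotypes in GV oocytes, 1 fit of all 16 libraries called 2 (Rab28 and Rab13, both higher), and the other settings called 0. Over all entries that fit called 124 higher and 33 lower, against 11 and 2 in the main fit. In eggs the main count of 3 became 0 with no filter, 0 with no intensity trend, 0 with a replicate block, 1 with median-ratio rescaling and 8 with all 16 libraries in 1 fit (7 higher and 1 lower). Over all entries the main fit called 620 higher and 141 lower. In the same order of settings these became 354 and 105, 415 and 86, 101 and 7, 510 and 207, and 1328 and 254. The Rab count in eggs ran from 0 to 5 with 1 library left out. For the interaction the main count of 1 became 0 with log2 of FPKM plus 1, 2 with no filter, 0 with no intensity trend, 0 with a replicate block and 0 with median-ratio rescaling, and ran from 0 to 2 with 1 library left out. Over all entries the main interaction fit called 114 higher and 20 lower. With the same 5 settings in order these were 75 and 8, 91 and 32, 97 and 22, 53 and 7, and 137 and 26. The cause of these changes was not tested. Same-numbered libraries deviated together with correlations from -0.50 to 0.29, so the numbers were not taken to pair the samples, and the block also took Rab11a in WT past the threshold (adjusted p = 0.0535). Summing entries by name, chosen after seeing the data, left the counts as they were. Low entries such as Rab12 and Rab2b rest on fewer fragments than abundant ones. Values well under 1 FPKM, such as those of Rab25 in WT eggs, rest on few fragments at this depth.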
